A study of Homo sapiens with 6 samples.

Results

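The comparison describes how A-498 differed from 786-O, both human cell lines of clear cell renal cell carcinoma, across every shRNA construct of a ZNF395 knockdown experiment. All 6 libraries of the series entered it, 3 of A-498 and 3 of 786-O, chosen by the line named in each library's labels and paired by the construct the cells carried. In each line 1 library held a non-targeting control hairpin, 1 held ZNF395 hairpin 1 and 1 held ZNF395 hairpin 3, so controls and knockdowns alike had been infected with HEK293T-packaged retroviral particles and selected in puromycin. The libraries were made from total RNA with a stranded kit, and both lines grew in RPMI-1640 with fetal bovine serum. Each line descends from 1 tumour and each line and construct had 1 library, so the 3 libraries of a line are not repeat cultures of 1 condition. The p-values measure only how far the line difference varied from construct to construct.

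Clear cell carcinoma arises from the kidney tubule and usually begins with loss of VHL, the subunit of a ubiquitin ligase that marks hypoxia-inducible factors (HIF) for destruction. Without VHL the alpha subunits HIF-1 and HIF-2 (genes HIF1A and EPAS1) accumulate and drive genes of glucose uptake, blood vessel growth and lipid storage. Both lines are known as VHL-deficient, so the loss of VHL is shared. The differences described here lie in kidney lineage factors, in the HIF pathway itself, in genes of adhesion and matrix, and in metabolic and immune genes.

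Library totals ran from 77534125 to 99147218 counts, and a level of 1 CPM, the count scaled to library size, stood for 77.5 to 99.1 counts. Of 32357 genes in the table, 25596 to 26132 were detected in the 786-O libraries and 28235 to 28804 in those of A-498. Genes of mitochondrial DNA took 5.12 to 5.45% of the counts in 786-O and 7.02 to 8.20% in A-498. Expression over genes correlated at 0.957 to 0.988 (Pearson r) within a line and at 0.632 to 0.686 between lines, and no 2 libraries were identical. ZNF395, the knockdown target, stood at 96.1, 24.6 and 13.4 CPM in 786-O (first the control, then hairpin 1, then hairpin 3) and at 68, 14.6 and 14.3 CPM in A-498, and every series of 3 values below follows this order. Its level in the control was the highest in each line, and the 2 lines overlapped.

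The control libraries stood apart in 1 respect. They carried low counts of genes that the hairpin libraries of the same line lacked and that the other line expressed strongly. Genes specific to A-498 reached 0.192 to 0.204% of their A-498 level in the 786-O control, where all 20 and all 26 of the genes in 2 such sets had counts. Genes specific to 786-O reached 0.0761 to 0.0801% of their 786-O level in the A-498 control. In the hairpin libraries the same measure was 0.00993 to 0.0322%. The source of these counts was not tested. They lower the control ratio of genes that are nearly silent in 1 line, and the ratios of the 3 construct pairs are given below for 5 such genes.

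The labelled cell type was checked against its markers. PAX8, the transcription factor used to identify renal tumours, stood at 181, 186 and 156 CPM in 786-O and 256, 185 and 192 CPM in A-498, and the lines overlapped. PAX2, its partner in kidney development, stood at 22.3, 17.6 and 26.5 CPM and 19.7, 18.3 and 19.6 CPM. All 14 renal carcinoma markers were measured, and their summed level was 3717 to 4048 CPM in 786-O and 3014 to 3374 CPM in A-498. VIM, whose levels are given below, made up a large part of this sum in both lines. The sum by itself therefore says little about renal identity. A pair of hallmark genes of the tumour was low, however: CA9, a carbonic anhydrase and HIF target, had 0.0126, 0 and 0 CPM in 786-O and at most 1.68 CPM in A-498, and NDUFA4L2, a mitochondrial HIF target, did not exceed 1.15 CPM in any library. Endothelial markers summed to 1.41 to 1.75 CPM in 786-O and 2.84 to 4.95 CPM in A-498, and leukocyte markers to 1.54 to 4.15 CPM and 3.68 to 6.29 CPM. VWF and EMCN (endothelial) and TYROBP (leukocyte) had 0 counts in 786-O. Of 10 fibroblast markers, 5 passed the expression filter, and their sum of 127 to 161 CPM in A-498 against 7.16 to 9.98 CPM in 786-O was mostly POSTN, while COL1A2, COL3A1 and DCN stayed below the filter. Of 12 genes high in HEK293 cells, 6 were tested and all 6 differed, 4 higher in A-498 and 2 in 786-O. Their summed level was 386 to 540 CPM in 786-O and 530 to 608 CPM in A-498, so these markers move with the line, and their part in the other results was not tested.

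Most of the transcriptome differed between the lines. Of 19231 genes tested, 11877 (61.8%) passed an adjusted p of 0.05 in edgeR's quasi-likelihood test with construct as a block, and such genes are named called below. A-498 was higher for 6124 of them (31.8% of genes tested) and 786-O for 5753 (29.9%). By at least 4-fold, 2484 genes (12.9%) were higher in A-498 and 989 (5.14%) in 786-O, together 3473 (18.1%). Among the 10268 genes with at least 10 CPM in the higher line the balance was closer, with 526 (5.12%) at least 4-fold higher in A-498 and 334 (3.25%) in 786-O. At that abundance 2655 genes (25.9%) were called higher in A-498 and 3927 (38.2%) in 786-O. The 3 libraries of one line lay wholly above those of the other for 11358 genes (59.1%), and 11855 of the 11877 called genes had the same direction in all 3 construct pairs. The median log2 difference (A-498 over 786-O) was 0.011 over all genes tested, the median absolute difference 0.64 and the median standard error (SE) 0.17. Below, a log2 difference is A-498 over 786-O with its SE after ±, from 3 libraries a line, so that a negative value is higher in 786-O.

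The line differences also held between the control libraries. A fit on the 4 knockdown libraries, which shares no library with the control pair, called 9229 of 19456 genes (47.4%). In the control pair, a ratio of 1 library to 1 with no test, 9174 of these 9229 genes (99.4%) had the same direction and 8336 had at least 0.5 times its size (log2). The other 55 went the opposite way or showed no difference, and none was opposite by 2-fold or more. Abundant genes were among the 55. LAMB3, a laminin chain with a mean of 121 CPM, had a log2 difference of -1.55 in the knockdown libraries and 0.27 in the control pair. SAMHD1, with a mean of 102 CPM, had 1.46 and -0.15. Of the 1735 genes that differed by at least 4 log2 units in the knockdown libraries, 1734 kept their direction in the controls. Over the 11027 genes that averaged 5 CPM or more, the values correlated across genes at 0.971 (Pearson r) and 0.951 (Spearman rho), with a median absolute difference of 0.14 log2 units; genes are not independent replicates.

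**Figure D1:**
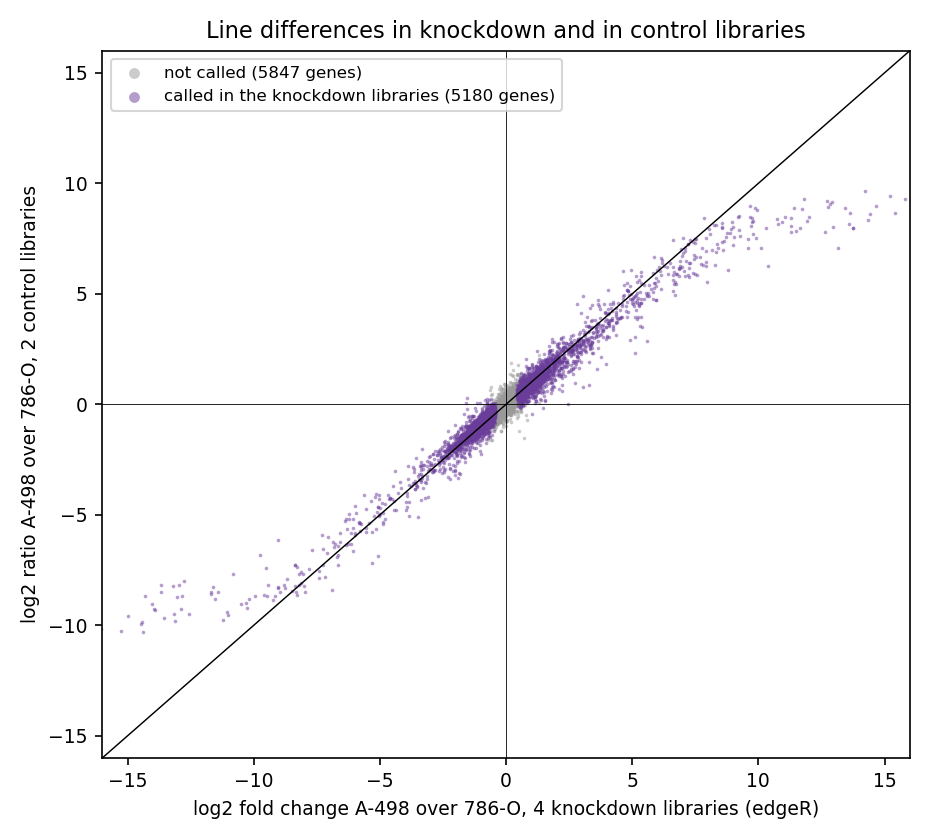
Each point is 1 of 11027 genes that averaged 5 CPM or more: the x axis gives the log2 fold change A-498 over 786-O in the 4 knockdown libraries (edgeR) and the y axis the log2 ratio of the 2 control libraries, with a prior count of 2. The 5180 purple genes were called in the knockdown libraries; points follow the line of equality (Pearson r 0.971) and flatten at both ends, where 1 line has few or no counts.

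The extremes of the comparison were genes on in 1 line and off in the other. With at least 10 CPM in A-498, 45 genes stayed under 0.1 CPM in every 786-O library, and 46 did the reverse. SOX11, a transcription factor of the developing nervous system and kidney, held 29.1, 29.2 and 29.1 CPM in A-498 against 0.0126, 0 and 0 CPM in 786-O, a ratio of 6791-fold with a 95% counting interval of 1219 to 268300.0. EPHA7, an ephrin receptor kinase, had 69, 36.2 and 78.3 CPM against 0.0757, 0 and 0 CPM. PHGDH, the first enzyme of serine synthesis, had 0.215, 0 and 0.0133 CPM in 786-O and 93.1, 136 and 218 CPM in A-498. TRIM32, a ubiquitin ligase, stood at 43.9, 38.2 and 40.7 CPM in A-498 and 0.0631, 0 and 0 CPM in 786-O, and GDA, guanine deaminase, at 78.2, 52.6 and 72.2 and 0.114, 0 and 0.0133 CPM. In each of these genes the control was the highest of the 3 libraries of 786-O. With a prior count of 2, the log2 ratio of the control, hairpin 1 and hairpin 3 pairs was 9.44, 10.59 and 11.70 for EPHA7, 8.61, 12.50 and 12.53 for PHGDH and 9.16, 11.13 and 10.94 for GDA, smallest in the control pair in each. With so few counts in 786-O these ratios depend on the prior count. PPP2R2C (a phosphatase subunit), LRP3, RPL39L (a ribosomal protein paralogue), FBLN1 (a matrix glycoprotein), POPDC3 and PCDHA10 were also among the 12 largest fitted differences towards A-498 that the naming rule kept (see the processing section). PCDHA10, a clustered protocadherin with 13.7, 6.39 and 13.9 CPM in A-498, had 0 counts in all 786-O libraries and was at least 879-fold higher in A-498 (3 counts over the 3 libraries taken as the floor).

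Towards 786-O the 12 largest fitted differences kept by the same rule included genes without counts in A-498, which have only a lower bound and no defined rank. SHROOM4, an actin-binding protein, held 20.7, 17.3 and 10.7 CPM in 786-O and 0 in A-498, at least 1501-fold, and SEMA6D, a semaphorin guidance ligand, held 14.5, 11.8 and 11.3 CPM, at least 1159-fold. The zinc finger genes ZNF702P and ZFP28 were at least 1392-fold and 974-fold higher in 786-O on the same floor. GSTP1, a glutathione transferase, stood at 224, 203 and 173 CPM in 786-O and 0.171, 0 and 0 CPM in A-498. MT1E, a metallothionein that binds zinc and copper, stood at 227, 304 and 145 and 0.151, 0 and 0 CPM. The ratios of the 3 pairs, in the same order and with the same prior count, were -10.17, -13.08 and -12.84 for GSTP1 and -10.35, -13.66 and -12.59 for MT1E. SLC17A9, the vesicular nucleotide transporter, had 144, 132 and 168 CPM against 0.0904, 0 and 0.0102 CPM, and GYPC, a membrane glycoprotein best known from red cells, had 51.2, 72.2 and 101 CPM against 0.0402, 0.0125 and 0 CPM. FBXL7 (9020.0-fold with a 95% counting interval of 1618 to 356300.0), MANEAL (4937-fold with a 95% counting interval of 886 to 195000.0), GSTT1 (2507-fold with a 95% counting interval of 857 to 12160.0) and LIPG, endothelial lipase (2853-fold with a 95% counting interval of 789 to 23570.0), had 1 to 3 counts in A-498, and their ratios rest on those counts.

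Genes were then grouped by role. Across 38 lists, those of cell type markers included, protocadherins (median log2 difference 2.29), MHC class II (1.63), NRF2 and detoxification genes (1.60), interferon-stimulated genes (1.54) and collagens (1.32) had the highest medians, and cholesterol synthesis (-0.92), proliferation (-0.71), matrix proteases (-0.51) and mesenchymal genes (-0.50) the lowest. The median over all genes tested was 0.011. Of all genes tested 31.8% were higher in A-498 and 29.9% in 786-O, and of genes at 10 CPM or more 25.9 and 38.2%. The shares of a list below are to be read beside these. Of the 769 members that were called in the 4 knockdown libraries alone, those of marker lists aside, 762 (99.1%) had the same direction in the control pair, beside 99.4% of all genes called there. The members of most lists spread in both directions, so a median describes only part of each.

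**Figure D2:**
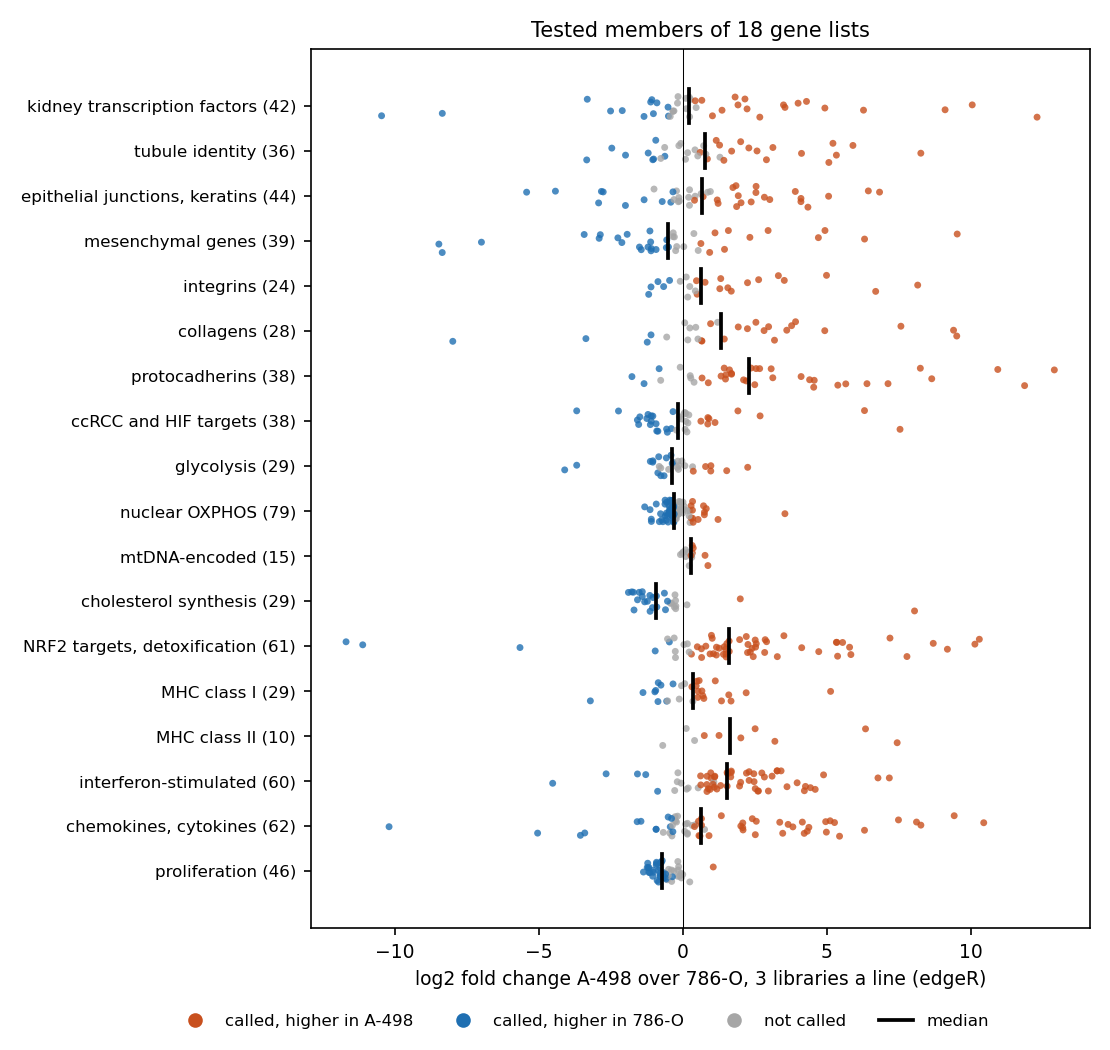
Each point is 1 tested member of a list, placed by its log2 fold change A-498 over 786-O (edgeR, 3 libraries a line) on the x axis; the number tested stands in brackets, colours give the call and black bars the median. Protocadherins, detoxification and interferon-stimulated genes lie mostly to the right and cholesterol and proliferation genes to the left, while kidney transcription factors reach both ends.

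Kidney transcription factors included large differences in both directions. Of 55 listed, 42 were tested, 18 were higher in A-498 and 12 in 786-O, a share called of 71.4% beside 61.8% of all genes, and 17 differed by at least 4-fold. HNF4A, a nuclear receptor that runs the programme of the proximal tubule and liver, stood at 26, 15.8 and 8.81 CPM in A-498 and 0.0631, 0.0255 and 0 CPM in 786-O (log2 difference 9.11 ± 0.33). NR1H4, the bile acid receptor FXR, was at 80.2, 50.5 and 44.5 CPM against 3.28, 3.6 and 0.239 CPM (4.93 ± 0.60). The A-498 libraries lay wholly above those of 786-O in both genes.

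Factors of distal and developing nephron segments also separated the lines. POU3F3, a regulator of the distal nephron, had 41.6, 27.3 and 50.1 CPM in A-498 and 0.517, 0.42 and 0.571 CPM in 786-O (6.27 ± 0.16). SOX9, a factor of tubule repair, had 46.1, 64.9 and 57.1 CPM against 8.66, 17.6 and 12.6 CPM (2.16 ± 0.13). TFAP2A (2.23 ± 0.18), FOXC1 (1.81 ± 0.22), ELF3, an epithelial factor (1.91 ± 0.26), and the metabolic receptor ESRRG (2.67 ± 0.31) were also higher in A-498. GATA3, a factor of the ureteric bud and collecting duct, was at 1.93, 2.25 and 2.08 CPM in A-498 and below 0.2 CPM in 786-O (4.29 ± 0.38). SIX2, which marks nephron progenitors, had 0 counts in 786-O and 1.58, 1.88 and 1.21 CPM in A-498, at least 121-fold. OSR1, needed at the start of kidney development, was at 2.96, 2.48 and 2.41 CPM against 0.341, 0.0764 and 0.106 CPM (4.0 ± 0.38), while EYA1 and EMX1 reached no more than 0.251 and 1.01 CPM.

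In 786-O a different set was on. WT1, a zinc finger factor of the developing kidney and podocyte, stood at 20.7, 27.6 and 20.2 CPM in 786-O and 0.0301, 0 and 0.0102 CPM in A-498 (-10.47 ± 0.37). SIM1, a factor of the intermediate nephron, stood at 13, 11.8 and 12.4 CPM and 0.0201, 0.0626 and 0.0307 CPM (-8.36 ± 0.31). IRX5, of the Iroquois family that patterns the nephron, stood at 16.7, 14.2 and 15 CPM and 1.43, 1.45 and 1.71 CPM (-3.32 ± 0.16). None of the libraries overlapped for these 3 genes. TFCP2L1 (-2.51 ± 0.31), TBX2 (-2.11 ± 0.17), GATA2 (-1.35 ± 0.21), MECOM (-1.12 ± 0.11), SOX4 (-1.03 ± 0.11) and MAF (-0.90 ± 0.19) were higher in 786-O by smaller amounts. Beside PAX2 and PAX8, 10 further factors were not called: HNF4G, SALL1, GATA6, TBX3, PPARA, OSR2, GRHL1, FOXC2, FOXD1 and SIM2. LHX1 (0.66 ± 0.17), IRX3 (-0.52 ± 0.12), ZEB1 (-0.50 ± 0.14) and EHF (1.36 ± 0.43) were called, and each lost its call when a pair or a library was left out.

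**Figure D3:**
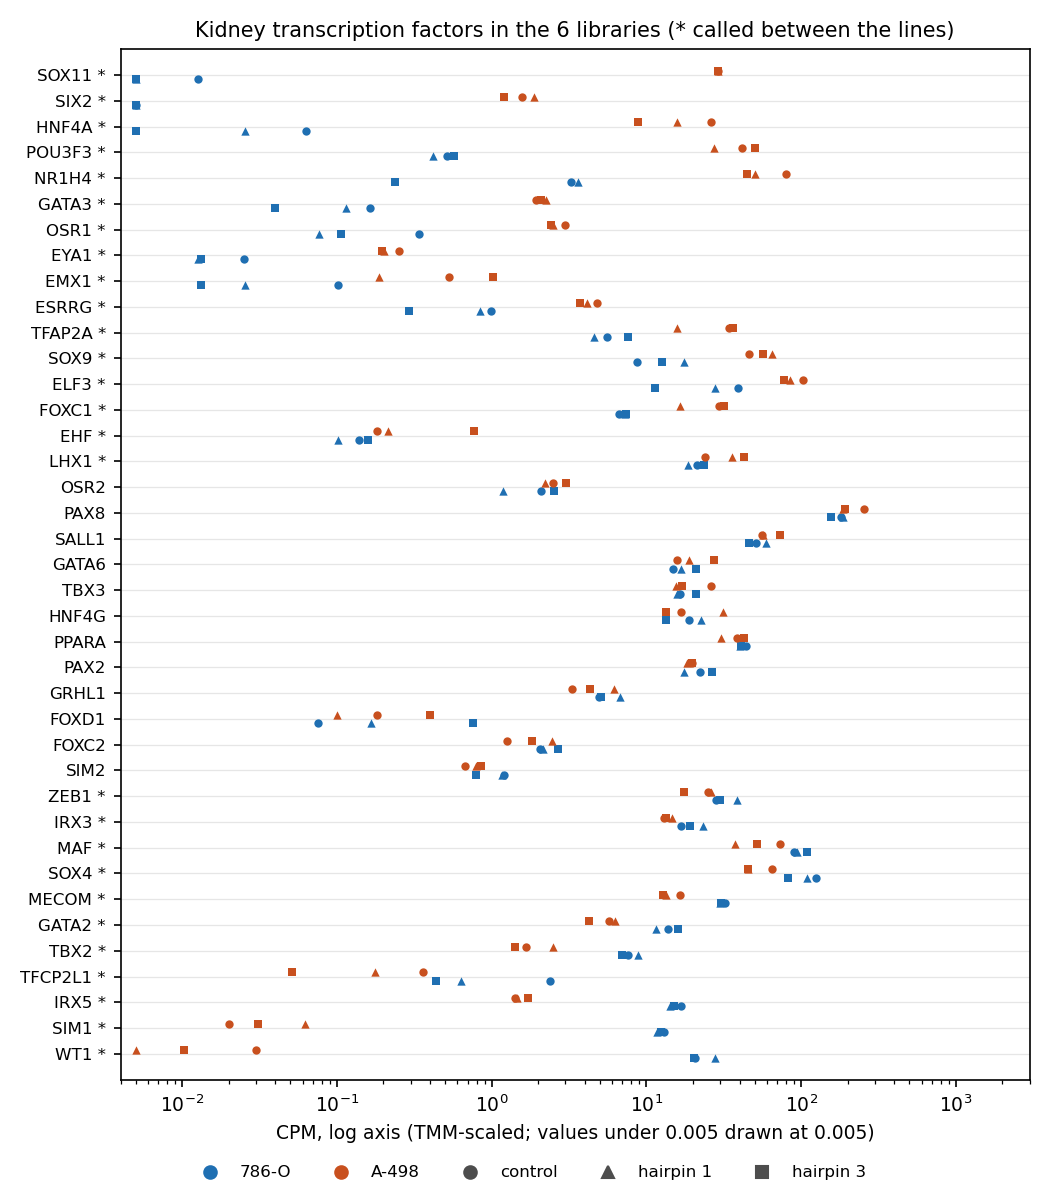
Of the 42 tested kidney transcription factors, 39 are drawn, ordered by log2 fold change, with CPM in each of the 6 libraries on a log x axis (blue 786-O, orange A-498; the shape gives the construct, and values under 0.005 are drawn at 0.005). PAX2 and PAX8 overlap between the lines, WT1 and SIM1 at the bottom lie above 10 CPM in 786-O and under 0.1 CPM in A-498, and SOX11, SIX2 and HNF4A at the top are under 0.1 CPM in 786-O.

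Among HOX genes, which encode position along the body axis, a few differences were large. Of 35 tested, 13 were higher in A-498 and 10 in 786-O, a share called of 65.7% near the 61.8% of all genes, and the median log2 difference was 0.11. HOXC13 stood at 11.7, 6.36 and 9.77 CPM in A-498 and 0.0126, 0 and 0 CPM in 786-O (2211-fold with a 95% counting interval of 396 to 87350.0), and HOXD13 at 1.63, 2.2 and 1.84 CPM against 0.0126, 0.0255 and 0 CPM. HOXC4 (-2.28 ± 0.23), HOXA2 (-1.07 ± 0.14) and HOXB9 (-0.999 ± 0.16) were higher in 786-O, HOXB9 with a call lost with line as the only term. Over 62.5% of the exon length of HOXA7 (6.01 ± 0.40) and 58.1% of that of HOXD1 (-1.85 ± 0.23), the annotation has exons of another gene on the opposite strand. The kit was stranded, but whether the counting used strand is not stated, so both are uncertain. Without the control pair, 6 HOX genes were called higher in 786-O.

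Transporters and brush border enzymes of the tubule also differed. Of 36 tested, 17 (47.2%) were higher in A-498 and 8 (22.2%) in 786-O, and 13 differed by at least 4-fold. ABCC2, an exporter of the proximal tubule's apical membrane, was at 301, 289 and 366 CPM in A-498 and 9.98, 10.3 and 4.5 CPM in 786-O (5.33 ± 0.34). The organic cation exporters SLC47A2 (48.3, 31.1 and 41.2 CPM against 1.53, 0.726 and 0.0664 CPM) and SLC47A1 (8.27 ± 0.43) were higher in A-498 as well. GGT1, the brush border enzyme that cleaves glutathione, was higher in 786-O at 232, 212 and 159 CPM against 23, 21.9 and 14.8 CPM (-3.34 ± 0.10). SLC16A12, a creatine carrier (-2.47 ± 0.49), and MME, neprilysin of the brush border (-1.21 ± 0.29), were also higher in 786-O. The count higher in 786-O was 5 without the control pair and 4 with no construct block.

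Within the HIF pathway the 2 alpha subunits differed in opposite directions. HIF1A stood at 347, 246 and 153 CPM in A-498 and 8.32, 7.21 and 8.12 CPM in 786-O, a log2 difference of 4.90 ± 0.25 (edgeR adjusted p = 1.49e-05). All A-498 libraries lay far above all 786-O libraries, and the control pair differed by 5.38. EPAS1 stood at 158, 122 and 258 CPM in 786-O and 116, 78.6 and 208 CPM in A-498, overlapped between the lines and was lower in A-498 (-0.46 ± 0.11), a call lost without the A-498 control or with no construct block. VHL transcript itself was lower in A-498, at 46.9, 53.7 and 63.5 CPM and 30.6, 34.8 and 43.7 CPM (-0.59 ± 0.093), as was ARNT, the shared beta subunit (-0.93 ± 0.096). EGLN1, the main oxygen-sensing hydroxylase of HIF alpha subunits, was higher in A-498 at 139, 121 and 172 CPM against 68.5, 63.5 and 98.8 CPM (0.92 ± 0.099), while EGLN3, a hydroxylase gene that is itself a HIF target, did not pass (0.14 ± 0.13). Of 15 tested members 4 were higher in A-498 and 6 in 786-O, a share called of 66.7% near that of all genes. RBX1 (-0.77 ± 0.13), of the VHL ligase, and CITED2 (-0.66 ± 0.12), which competes with HIF for its coactivator, were among the latter.

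Genes raised in clear cell tumours, many of them HIF targets, were more often called higher in 786-O. Of 38 tested, 18 (47.4%) were higher in 786-O and 9 (23.7%) in A-498, with a median of -0.18. The shares were 29.9 and 31.8% of all genes, and 38.2 and 25.9% of genes at 10 CPM or more. Called or not, 17 of the 38 had a log2 difference above 0. With no construct block 10 were called higher in 786-O. ENO2, the neuronal enolase of glycolysis, stood at 130.3, 143 and 109.7 CPM in 786-O and 9.09, 13.3 and 7.84 CPM in A-498 (-3.69 ± 0.13). BHLHE41, a clock-linked repressor (-1.58 ± 0.11), and HILPDA, a lipid droplet protein (-1.54 ± 0.13), were also higher in 786-O. CXCR4, a chemokine receptor and HIF target, was higher in A-498 at 49, 22 and 53.5 CPM against 0.48, 0.306 and 0.783 CPM (6.31 ± 0.18). PLIN2, the lipid droplet coat protein that marks clear cells, stood at 490.3, 436 and 536 CPM against 123, 116 and 152 CPM (1.91 ± 0.10), and ANGPTL4, an inhibitor of lipoprotein lipase, at 17.1, 20.7 and 36 CPM against 3.03, 2.89 and 5.49 CPM (2.68 ± 0.14). CA9 was 263-fold with a 95% counting interval of 46.9 to 10430.0 higher in A-498 but under 2 CPM there.

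Among tumour suppressors and oncogenes most differences were small. Of 37 tested, 11 were higher in A-498 and 13 in 786-O, a share called of 64.9% near the 61.8% of all genes. Only TERT, the telomerase subunit, passed 4-fold, at 4.7, 4.69 and 4.37 CPM in 786-O and 0.492, 0.726 and 0.0819 CPM in A-498 (-3.60 ± 0.50). MDM2, a ubiquitin ligase, was higher in A-498 at 217, 217 and 251 CPM against 62, 84.1 and 84.2 CPM (1.58 ± 0.12). The cell cycle kinase CDK6 (447, 704 and 425 CPM in 786-O against 160.4, 273 and 145 CPM in A-498, -1.47 ± 0.10) and its partner CCND1, a known HIF target in this tumour (484, 381 and 666 CPM against 254, 165 and 297 CPM, -1.10 ± 0.11), were higher in 786-O. Chromatin genes altered in clear cell tumours, PBRM1 (-0.48 ± 0.10), SETD2 (-0.49 ± 0.10) and BAP1 (-0.39 ± 0.12), were slightly lower in A-498; SETD2 lost its call without the A-498 control and BAP1 without either control or the hairpin 3 pair. SMARCB1 (-1.11 ± 0.11), ARID1A (-0.85 ± 0.12) and MTOR (-0.81 ± 0.093) were lower in A-498 too. MYC (0.42 ± 0.10) was called but lost its call without the control or the hairpin 1 pair, and CDKN1A, CDKN1B, NF2, TSC1, SMARCA2, SMARCA4, ATM, MDM4, CDK4, FHIT, KDM5C, DMRTA1 and KEAP1 were not called.

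Cell junctions and keratins leaned to A-498 (median 0.67), with large differences in both directions. Of 44 tested genes of epithelial junctions and keratins, 21 (47.7%) were higher in A-498 and 10 (22.7%) in 786-O. DSP, the desmosome's plakin, stood at 56.2, 59.9 and 71.6 CPM in A-498 and 0.934, 0.599 and 0.624 CPM in 786-O (6.44 ± 0.22). CDH17, an intestinal-type cadherin, was at 20.9, 7.85 and 13.3 CPM against 0.732, 0.28 and 0.265 CPM (5.06 ± 0.23), and CDH3, P-cadherin, at 2.13, 3.89 and 1.78 CPM against 0.0379, 0.0255 and 0 CPM (6.83 ± 0.45). In 786-O, KRT19, a simple epithelial keratin, stood at 204, 135 and 174 CPM against 9.86, 8.19 and 5.92 CPM in A-498 (-4.43 ± 0.18), and SPINT2, an inhibitor of membrane proteases, at 100.1, 98.2 and 97 CPM against 2.36, 3.51 and 1.37 CPM (-5.43 ± 0.27). CLDN2, the cation-pore claudin of the proximal tubule, was at 73.6, 49.5 and 12.2 CPM against 8.94, 6.99 and 1.62 CPM (-2.93 ± 0.12); it was lowest with hairpin 3 in both lines, yet the 3 libraries of each line did not overlap.

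Mesenchymal genes leaned to 786-O, with 20 of 39 (51.3%) higher there and 11 (28.2%) in A-498. POSTN, periostin, a matrix protein of wounds and fibroblasts, stood at 125, 119 and 106 CPM in A-498 and 0.353, 0.0255 and 0.106 CPM in 786-O (9.53 ± 0.44). THBS2, an anti-angiogenic matrix protein, was at 55.6, 48.3 and 43.3 CPM against 0.581, 0.56 and 0.703 CPM (6.31 ± 0.18), and CDH11, osteoblast cadherin, at 13.8, 14.7 and 9.25 CPM against 0.53, 0.191 and 0.518 CPM (4.94 ± 0.38). In the opposite direction, CDH13, a cadherin anchored by lipid, stood at 30.0, 53.3 and 49.1 CPM in 786-O and 0.0603, 0.113 and 0.195 CPM in A-498 (-8.48 ± 0.23). TCF4, a helix-loop-helix factor, was at 32.2, 36.4 and 42 CPM against 0.281, 0.451 and 0.154 CPM (-7.0 ± 0.32), and LOXL1, which cross-links elastin, was also higher in 786-O (-3.43 ± 0.43). Vimentin, the intermediate filament of mesenchymal cells, was higher in 786-O, with VIM at 1940.4, 2061 and 1942 CPM against 806, 1116 and 797 CPM (-1.15 ± 0.13). KRT8 (0.70 ± 0.14) and KRT18 (1.22 ± 0.14), the keratin pair of simple epithelia, were higher in A-498.

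Receptors for matrix and the matrix itself were mostly higher in A-498. Of 24 tested integrin subunits, 14 (58.3%) were higher in A-498 and 5 (20.8%) in 786-O, beside 31.8 and 29.9% of all genes. ITGA4, which binds VCAM1 and fibronectin, stood at 66, 81.1 and 27 CPM in A-498 and 0.416, 0.153 and 0.0531 CPM in 786-O (8.16 ± 0.34), and ITGA1, a collagen receptor subunit, at 108, 73 and 81.5 CPM against 7.74, 7.45 and 7.31 CPM (3.52 ± 0.14). ITGAX, a subunit better known from myeloid cells, was at 22.1, 29.9 and 5.59 CPM against 0.82, 0.942 and 0.119 CPM (4.99 ± 0.19). ITGB8 (-1.19 ± 0.098) and ITGB5 (-0.87 ± 0.12), partners of the alpha-v subunit, were higher in 786-O. The number higher in 786-O was 2 without the hairpin 1 pair and 3 without the controls.

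Collagens were 17 of 28 (60.7%) higher in A-498 and 4 (14.3%) higher in 786-O, with 12 and 2 of them by at least 4-fold. COL5A1, which nucleates collagen fibrils, stood at 437, 227 and 470.2 CPM in A-498 and 0.858, 0.395 and 0.411 CPM in 786-O (9.40 ± 0.27). COL12A1, a fibril-associated collagen, was at 84.2, 84.9 and 105 CPM against 2.36, 3.02 and 3.7 CPM (4.93 ± 0.13), and COL22A1 at 21.2, 16 and 12 CPM against 0.0505, 0.0127 and 0 CPM (9.51 ± 0.36). COL6A3, a chain of beaded microfilaments, went the other way, at 83.2, 108 and 148 CPM in 786-O and 0.522, 0.426 and 0.338 CPM in A-498 (-8.0 ± 0.28). COL8A1 was higher in 786-O as well, at 245, 220.5 and 158 CPM against 129.6, 83.7 and 59.7 CPM (-1.24 ± 0.13).

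Laminins, the trimers of basement membranes, and other matrix glycoproteins differed gene by gene. Of 38 laminin and matrix glycoprotein genes tested, 19 (50%) were higher in A-498 and 10 (26.3%) in 786-O. LAMA1 stood at 153, 114 and 202 CPM in A-498 and 0.858, 1.18 and 2.02 CPM in 786-O (6.88 ± 0.22), LAMA4 at 23.9, 23 and 51.4 CPM and 0.101, 0.0764 and 0.0929 CPM (8.43 ± 0.24), and LAMC3 at 7.13, 5.28 and 3.92 CPM and 0.0252, 0.0127 and 0.0398 CPM (7.63 ± 0.36). THBS1, thrombospondin, went the other way at 508, 955 and 452 CPM in 786-O and 81.1, 98.9 and 69.7 CPM in A-498 (-2.87 ± 0.16). FBLN1, which binds laminin and fibronectin, had 248, 244 and 254 CPM in A-498 and 0.442, 0.0255 and 0.0398 CPM in 786-O.

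Proteases of the matrix differed in which members were present. Of 31 tested, 12 (38.7%) were higher in A-498 and 15 (48.4%) in 786-O, and 16 differed by at least 4-fold. MMP2, gelatinase A, stood at 73.3, 47.2 and 59.2 CPM in 786-O and 0.362, 0.188 and 0.184 CPM in A-498 (-7.95 ± 0.18). PLAU, urokinase, was at 38.1, 49.4 and 25.2 CPM against 2.2, 1.9 and 0.184 CPM (-5.01 ± 0.50), while PLAT, the tissue plasminogen activator, was higher in A-498 at 17.2, 25.5 and 12.7 CPM against 0.24, 1.03 and 0.504 CPM (5.05 ± 0.32). ADAMTS12 (118, 119.9 and 137 CPM in A-498 against 0.656, 0.446 and 1.31 CPM in 786-O, 7.35 ± 0.27) and ADAM23, which has no active protease site (21.8, 18 and 23.4 CPM against 0.0631, 0 and 0 CPM), were higher in A-498. MMP1, interstitial collagenase, was low in both and higher in 786-O (-6.61 ± 0.46).

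Clustered protocadherins, surface proteins that give neurons individual identities, had the highest median of the 38 lists (2.29). Of 38 tested, 30 (78.95%) were higher in A-498 and 3 (7.9%) in 786-O, with 21 and 0 by at least 4-fold. The 38 passed a filter that high values in 1 line suffice to pass, and 9 of the listed genes had 0 counts in 786-O. PCDHAC2 stood at 4.84, 3.21 and 8.63 CPM in A-498 and 0 in 786-O, at least 432-fold, and PCDHAC1 at 1.67, 1.44 and 5.71 CPM and 0, at least 228-fold. PCDHGB7 (-1.77 ± 0.30) and PCDHGA10 (-1.35 ± 0.33), at most 1.64 and 1.54 CPM, were higher in 786-O, the latter with a call lost without either control. Members of a cluster share their last exons, so counts for single isoforms are uncertain. Only 16 were called higher in A-498 among genes of at least 1 CPM.

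Other adhesion molecules were balanced, with 12 of 31 (38.7%) higher in A-498 and 13 (41.9%) in 786-O. L1CAM, a neural adhesion protein, stood at 137, 138 and 81.3 CPM in A-498 and 3.82, 4.84 and 3.13 CPM in 786-O (4.90 ± 0.14). NRCAM, of the same family, was at 124, 163 and 126 CPM against 4.06, 11.2 and 1.99 CPM (4.88 ± 0.40), and BCAM, a laminin receptor, at 116, 88.5 and 132 CPM against 6.9, 7.96 and 3.41 CPM (4.25 ± 0.34). MCAM, an endothelial and melanoma adhesion molecule, was higher in 786-O at 102, 93.7 and 48.7 CPM against 1.83, 5.06 and 0.235 CPM (-5.60 ± 0.58), as were CADM1 (-2.49 ± 0.11), PVRL3 or nectin-3 (-1.85 ± 0.13) and the proteoglycan SDC2 (-1.75 ± 0.12).

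Of 40 receptor tyrosine kinases tested, 19 were higher in A-498 and 14 in 786-O, a share called of 82.5% beside 61.8% of all genes. INSR, the insulin receptor, stood at 4.96, 5.33 and 4.32 CPM in A-498 and 0.0379, 0.0509 and 0 CPM in 786-O (7.30 ± 0.43). ROR2, a receptor for WNT5A, stood at 15.4, 10.4 and 14.1 CPM in 786-O and 0.181, 0.163 and 0.0512 CPM in A-498 (-6.68 ± 0.35). NTRK3, the neurotrophin-3 receptor, was at 3.33, 3.53 and 1.5 CPM against 0.0803, 0.0376 and 0.0307 CPM (-5.73 ± 0.32). CSF1R, the macrophage growth factor receptor, was also higher in 786-O (-4.42 ± 0.55) but at most 3.34 CPM.

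Among 45 growth factor ligands, 22 (48.9%) were higher in A-498 and 19 (42.2%) in 786-O. EREG, epiregulin, a ligand of the EGF receptor, stood at 189, 296 and 211 CPM in 786-O and 0.502, 0.463 and 1.64 CPM in A-498 (-8.15 ± 0.47; edgeR adjusted p = 2.40e-05). WNT7B, a signal of the ureteric bud, was at 28.2, 30.2 and 35.1 CPM against 2.42, 2.54 and 1.18 CPM (-3.98 ± 0.30), and FGF5 at 11.7, 9.9 and 23.4 CPM against 0.653, 0.651 and 0.297 CPM (-4.73 ± 0.46). All libraries of 786-O lay above those of A-498 for these ligands. Ligands higher in A-498 included BMP6 (2.75, 6.49 and 1.51 CPM against 0.0505, 0 and 0.0133 CPM), BMP4 (1.49, 0.927 and 0.922 CPM, 262-fold with a 95% counting interval of 46.8 to 10400.0) and PDGFD (6.06, 3.92 and 3.31 CPM against 0.303, 0.178 and 0.0664 CPM, 4.65 ± 0.29).

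Central carbon metabolism was next. Of 29 glycolysis and lactate genes tested, 13 were higher in 786-O and 6 in A-498, a share called of 65.5% near the 61.8% of all genes, with a median of -0.37. LDHA, lactate dehydrogenase, stood at 1930.5, 1628 and 1864 CPM in 786-O and 997, 669 and 992 CPM in A-498 (-1.05 ± 0.12). SLC2A1, the glucose transporter GLUT1 and a HIF target, was at 597, 604 and 667 CPM against 277, 322 and 257 CPM (-1.13 ± 0.12). The 786-O libraries lay wholly above those of A-498 in both. ALDOC (2.25 ± 0.17), ENO3 (1.52 ± 0.23) and PFKFB2 (0.97 ± 0.14) were higher in A-498. In the hexosamine and pentose pathways 11 of 25 (44%) were higher in A-498 and 7 (28%) in 786-O. GFPT2, which opens the hexosamine pathway, stood at 36.2, 92.4 and 91.2 CPM against 5.41, 10.8 and 11.7 CPM (2.94 ± 0.12), while PGM1 (-0.92 ± 0.11) and PGM2 (-1.20 ± 0.15), phosphoglucomutases, were higher in 786-O.

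Nuclear-encoded genes of respiration were more often higher in 786-O. Of 79 nuclear-encoded subunits, 42 (53.2%) were higher in 786-O and 13 (16.5%) in A-498, with a median of -0.31. The shares were 29.9 and 31.8% of all genes, and 38.2 and 25.9% of genes at 10 CPM or more. Without the control pair the counts of subunits were 21 and 5, and with library totals as the scale 34 and 16. NDUFS6 of complex I stood at 84.7, 91.5 and 92.1 CPM in 786-O and 37.6, 40.7 and 47.9 CPM in A-498 (-1.10 ± 0.1), and COX8A of complex IV at 49.8, 49.1 and 27.9 CPM and 20.5, 20.7 and 10.1 CPM (-1.33 ± 0.11). ATP5E of the ATP synthase was also higher in 786-O (-1.10 ± 0.11), whereas COX7C (0.81 ± 0.11), UQCRFS1 (0.75 ± 0.091) and NDUFA3 (1.22 ± 0.11) were higher in A-498. Of 15 genes encoded in mitochondrial DNA, 6 were higher in A-498 and 0 in 786-O, a share called of 40.0% that lay below the 61.8% of all genes, and their summed level was 68120 to 81670 CPM in A-498 against 53610 to 55410 CPM in 786-O. MT-CO1, of complex IV, stood at 17461, 14660.0 and 15350.0 CPM and 9222, 9241 and 9327 CPM (0.77 ± 0.13). Only 2 of the 6 were called without the control pair, and MT-CO3 (0.36 ± 0.12) and MT-CYB (0.33 ± 0.11) were among those lost.

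In the citric acid cycle and fatty acid oxidation, 15 of 47 were higher in 786-O and 10 in A-498, a share of 53.2% called that lay below the 61.8% of all genes; with no construct block these counts were 8 and 6. CPT1A, which admits fatty acids to mitochondria, stood at 36.4, 42.8 and 47.6 CPM in A-498 and 13.5, 15.4 and 11.5 CPM in 786-O (1.65 ± 0.15), and ETFB, an electron carrier of oxidation, at 47.1, 48.9 and 42 CPM against 12.4, 12.4 and 8.69 CPM (2.06 ± 0.12). PDHA1, of pyruvate dehydrogenase, was higher in 786-O at 106, 96.9 and 109 CPM against 44.9, 43.2 and 40.0 CPM (-1.29 ± 0.10), and so was PDK1, the kinase that inhibits it (-1.25 ± 0.13). ACAA2, the last enzyme of the mitochondrial spiral, was at 19.3, 22 and 11.2 CPM against 3.12, 4.63 and 0.686 CPM (-2.90 ± 0.33).

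Cholesterol synthesis and uptake had the lowest median of the metabolic lists (-0.92, control pair -1.14). Here 19 of 29 genes (65.5%) were higher in 786-O and 2 (6.9%) in A-498. With no construct block 9 were called higher in 786-O, and the list's median was -0.69 in the hairpin 1 pair and -0.97 in the hairpin 3 pair. EBP, a sterol isomerase, stood at 116, 106 and 98.9 CPM in 786-O and 26.7, 40.5 and 22.1 CPM in A-498 (-1.89 ± 0.17). DHCR7, which completes cholesterol, was at 131, 134 and 54.2 CPM against 37.5, 58.1 and 10.8 CPM (-1.78 ± 0.21), and MVK, mevalonate kinase, at 32.2, 33.1 and 20.4 CPM against 9.18, 13.5 and 4.84 CPM (-1.72 ± 0.17). In DHCR7 the hairpin 3 library of each line was the lowest, so that the lines overlapped, and the call was lost with no construct block. The 2 genes higher in A-498 were not synthetic enzymes: ABCG1, a cholesterol exporter with 0 counts in 786-O and 0.211, 0.576 and 0.379 CPM in A-498, and APOE, a lipoprotein component (1.99 ± 0.30).

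Fatty acid and lipid droplet genes were balanced, with 17 of 43 (39.5%) higher in 786-O and 13 (30.2%) in A-498. FADS2, the delta-6 desaturase, stood at 435, 354 and 242 CPM in 786-O and 76.1, 78.5 and 32.2 CPM in A-498 (-2.53 ± 0.16). PLIN4, a droplet coat protein, stood at 9.16, 8.71 and 7.34 CPM in A-498 and 0.202, 0.0764 and 0.0531 CPM in 786-O (6.27 ± 0.33), in the same direction as PLIN2. CD36, a fatty acid transporter (2.51 ± 0.40), and FABP4 (3.57 ± 0.38) were higher in A-498 but stayed below 1 CPM in every library.

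Amino acid metabolism differed in single enzymes. Of 51 tested genes, 19 were higher in A-498 and 15 in 786-O, a share called of 66.7% near that of all genes. Beside PHGDH, ALDH1L2, a mitochondrial folate enzyme, stood at 52.9, 75.4 and 163 CPM in A-498 and 2.15, 1.92 and 8.2 CPM in 786-O (4.72 ± 0.21). SLC1A4, a carrier of serine and other neutral amino acids, was higher in 786-O at 74.2, 91.3 and 154 CPM against 10.2, 22.9 and 27.5 CPM (-2.45 ± 0.17). ASS1, of arginine synthesis, was low in both and higher in 786-O (3.4, 2.9 and 2.08 CPM against 0.492, 0.463 and 0.205 CPM, -2.90 ± 0.24). IDO1, which degrades tryptophan and responds to interferon, stood at 0.261, 2.63 and 0.164 CPM in A-498 and 0.0126, 0.0637 and 0.0265 CPM in 786-O, highest with hairpin 1.

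Targets of NRF2, the transcription factor of the oxidative stress response, and other detoxification genes were higher in A-498 in 49 of 61 tested and higher in 786-O in 5, beside 31.8 and 29.9% of all genes. The list's median was 1.60, 1.66 in the control pair, 1.48 in the hairpin 1 pair and 1.77 in the hairpin 3 pair, and its summed level was 20790 to 27560 CPM in A-498 and 6950 to 7857 CPM in 786-O. AKR1C1, an aldo-keto reductase that reduces steroids and carbonyls, stood at 723, 423 and 562 CPM in A-498 and 1.98, 0.777 and 0.438 CPM in 786-O (9.19 ± 0.37). AKR1C2 stood at 396, 151 and 234 CPM against 0.783, 0.0255 and 0.0265 CPM; these reductases are near-identical in sequence, and their split is uncertain. NFE2L2, which encodes NRF2, was itself higher in A-498, at 226, 258 and 251 CPM against 152, 177 and 175 CPM (0.55 ± 0.093). KEAP1, its inhibitor, did not pass (0.29 ± 0.11), and SQSTM1, which binds KEAP1, was at 717, 1023 and 724 CPM against 308, 369 and 248 CPM (1.41 ± 0.11).

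Glutathione transferases differed in which members were present. GSTM1 stood at 17.4, 21.6 and 15 CPM in A-498 and 0.0379, 0 and 0 CPM in 786-O, while GSTP1 and GSTT1 were among the 786-O genes with few or no counts in A-498. UGT1A6, a glucuronosyl transferase that shares its last exons with the other genes of its locus, stood at 68.8, 44.6 and 24.7 CPM in 786-O and 0.562, 1.4 and 0.686 CPM in A-498 (-5.66 ± 0.40). GPX4, which reduces lipid peroxides, was higher in 786-O at 238, 227 and 193 CPM against 113, 110.1 and 113 CPM (-0.96 ± 0.11).

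Interferon-stimulated genes were mostly higher in A-498, and the size of the difference varied with the construct. Of 60 tested, 47 (78.3%) were higher in A-498 and 5 (8.3%) in 786-O, beside 31.8 and 29.9% of all genes. The median log2 difference was 0.80 in the control pair, 2.18 in the hairpin 1 pair and 1.52 in the hairpin 3 pair. MX1, an antiviral GTPase, stood at 121, 882 and 486 CPM in A-498 and 2.61, 3.34 and 2.14 CPM in 786-O (7.17 ± 0.57). OAS2, which senses double-stranded RNA, was at 101, 590.2 and 275 CPM against 1.74, 4.06 and 1.84 CPM (6.78 ± 0.32), and IFI27 at 53.3, 171 and 122 CPM against 3.46, 5.11 and 2.42 CPM (4.89 ± 0.33). In all 3 genes the A-498 control was the lowest A-498 library and still lay above every 786-O library. Other members did not hold in the controls: of 54 called in the knockdown libraries alone, ISG15 and MX2 went the opposite way in the control pair. ISG15, a ubiquitin-like modifier, stood at 44.8, 164 and 129.9 CPM in A-498 and 61.6, 66.6 and 78.6 CPM in 786-O, with a log2 difference of 1.02 in the knockdown libraries and -0.46 in the control pair. MX2, a paralogue of MX1, stood at 0.723, 12.6 and 2.7 CPM and 1.17, 2.84 and 0.995 CPM, with 1.82 and -0.68. The lines overlapped in both, and neither was called over all 6 libraries. IFITM2, a membrane restriction factor, went the other way at 16.8, 13.5 and 12.5 CPM in 786-O and 0.593, 0.914 and 0.41 CPM in A-498 (-4.52 ± 0.26), and GBP3 (111, 141 and 162 CPM against 36.3, 56.9 and 45.6 CPM, -1.58 ± 0.13) and IRF5 (-1.29 ± 0.12) were higher in 786-O too.

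**Figure D4:**
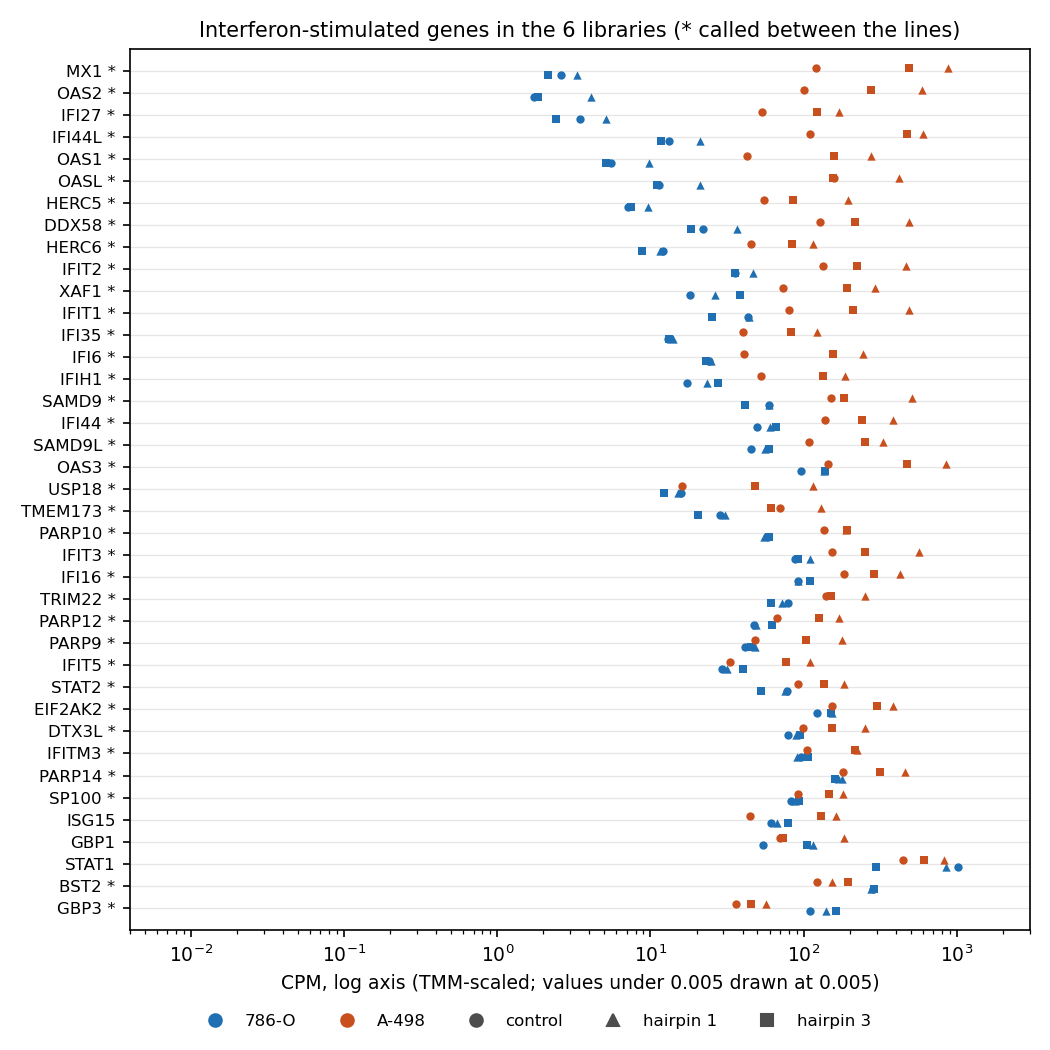
The 39 interferon-stimulated genes that reached 100 CPM in some library, ordered by log2 fold change, with CPM in each of the 6 libraries on a log x axis (blue 786-O, orange A-498, shapes for constructs). MX1 and OAS2 at the top separate the lines in every library, the A-498 control (orange circle) is mostly the lowest of its line, and BST2 and GBP3 at the bottom are higher in 786-O.

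No line difference was called as altered by knockdown. The interaction of line and knockdown called 0 of 19231 genes (0%) in edgeR, with 155 at an unadjusted p under 0.05, and DESeq2 called 0 (115 unadjusted). The smallest p-values included FBLN1, GSTP1, AKR1C2, KCTD15 and PHGDH, genes nearly silent in 1 line whose counts there lay mainly in its control library, described above. IRF7, the interferon regulator, was of another kind, at 12.9, 65.3 and 66.2 CPM in A-498 and 3.65, 4.18 and 4.35 CPM in 786-O, with an edgeR interaction p of 0.00139 unadjusted and 0.99999 adjusted. The X-inactivation and Y-linked genes among the 10 smallest, 3 in number, are left out.

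Antigen presentation differed by class. For MHC class I and its helpers, 15 of 29 tested (51.7%) were higher in A-498 and 9 (31.0%) in 786-O. Their summed level went the other way, at 7442 to 8044 CPM in 786-O and 6565 to 7434 CPM in A-498. HLA-F, a minor class I heavy chain, stood at 14.5, 30.5 and 24 CPM in A-498 and 6.53, 9.98 and 5.92 CPM in 786-O (1.59 ± 0.18), and MICB, a stress ligand for natural killer cells, at 24.5, 35.2 and 38.4 CPM and 7.08, 8.97 and 16.1 CPM (1.67 ± 0.16). The related ligand MICA was higher in 786-O at 51.4, 45.8 and 62 CPM against 20.6, 19.2 and 20.6 CPM (-1.39 ± 0.11), as was CALR, the chaperone calreticulin (-0.97 ± 0.10). For class II, 7 of 10 (70%) were higher in A-498 and 0 in 786-O (4 with no construct block), at low levels. The summed level of class II overlapped between the lines, at 59.9 to 147 CPM in A-498 and 35.8 to 85.2 CPM in 786-O. HLA-DMA, which loads peptides, stood at 11.1, 8.8 and 7.44 CPM in A-498 and 1.56, 1.06 and 0.531 CPM in 786-O (3.20 ± 0.23), and CIITA, the class II transactivator, at 2.84, 6.36 and 1.47 CPM and 0.48, 0.662 and 0.491 CPM (2.51 ± 0.34).

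Of 62 chemokines, cytokines and receptors tested, 34 (54.8%) were higher in A-498 and 12 (19.35%) in 786-O. High values in 1 line suffice to pass the filter, and listed genes without any count numbered 6 in 786-O and 0 in A-498. The list's summed level overlapped between the lines, at 2229 to 2853 CPM in A-498 and 2384 to 2857 CPM in 786-O. Some of the genes higher in A-498 were at a few CPM. CXCL14 stood at 8.48, 1.69 and 1.77 CPM in A-498 and 0.0252, 0.0127 and 0 CPM in 786-O. IL31RA was at 2.68, 3.88 and 5.41 CPM and 0, 0.0127 and 0 CPM, and IL13RA2 at 0.522, 0.726 and 5.12 CPM and 0. TNFSF10, the death ligand TRAIL, was higher in 786-O at 491, 521 and 587 CPM against 25.9, 67.1 and 52.1 CPM (-3.56 ± 0.25). CXCL5, a neutrophil attractant, stood at 31.6, 59.3 and 69.7 CPM in 786-O and 0.0301, 0.0376 and 0.0614 CPM in A-498 (-10.21 ± 0.19; edgeR adjusted p = 2.42e-06). TNF, the inflammatory cytokine, was at 1.69, 3.78 and 2.11 CPM against 0.0703, 0.113 and 0.041 CPM (-5.05 ± 0.30), and CCL28 at 13.4, 11.7 and 10.1 CPM against 1.22, 1.35 and 0.788 CPM (-3.41 ± 0.18).

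Innate immune genes leaned to A-498, with 29 of 49 tested (59.2%) higher there and 10 (20.4%) in 786-O. The largest differences lay in the classical complement pathway. C1S, the protease that cleaves C4, stood at 339.7, 297 and 380.1 CPM in A-498 and 2.46, 1.52 and 1.58 CPM in 786-O (7.53 ± 0.20), and its partner C1R at 44.3, 53.7 and 63.4 CPM and 0.921, 0.535 and 0.611 CPM (6.28 ± 0.26). SERPING1, which inhibits both, was at 1.33, 1.35 and 0.788 CPM against 0.0505, 0.0255 and 0 CPM. C4A and C4B are near-identical, and their opposite differences are uncertain. NFKBIZ, an inducible regulator of NF-kB, was higher in 786-O at 291, 246 and 134 CPM against 59.8, 65.4 and 41.2 CPM (-1.97 ± 0.14).

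Surface regulators of immunity were balanced, with 14 of 34 (41.2%) higher in A-498 and 11 (32.35%) in 786-O. TNFRSF11B, osteoprotegerin, a decoy receptor that also binds TRAIL, stood at 105, 44.4 and 119 CPM in A-498 and 1.51, 2.25 and 2.5 CPM in 786-O (5.32 ± 0.36). NT5E, the adenosine-producing enzyme CD73, was higher in 786-O in each pair (70.9, 114 and 237 CPM against 18, 61.6 and 74.7 CPM, -1.51 ± 0.21), although the lines overlapped and the call was lost with line as the only term. PDCD1LG2, the checkpoint ligand PD-L2, stood at 3.95, 9.17 and 16.9 CPM against 1.02, 4.04 and 1.08 CPM (-2.32 ± 0.51), and here too the lines overlapped. TNFRSF14, the receptor HVEM, stood at 4.51, 4.74 and 3.24 CPM in 786-O against 0.121, 0.15 and 0.133 CPM (-4.92 ± 0.25). VTCN1, the checkpoint ligand B7-H4, was higher in A-498 at 1.37, 3.78 and 0.584 CPM against 0.0631, 0.0509 and 0 CPM (5.54 ± 0.47).

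Cancer-testis and oncofetal genes were mostly not tested: 12 of 50 listed were tested, 7 (58.3%) higher in A-498 and 4 (33.3%) in 786-O. MAGEA6 and MAGEA1, X-linked germ cell antigens, had 0 counts in A-498 and at most 0.382 and 0.166 CPM in 786-O. IGF2BP2, an RNA-binding protein, stood at 80.1, 82.6 and 102 CPM in 786-O and 31.3, 25.3 and 43.6 CPM in A-498 (-1.43 ± 0.12), while H19, an imprinted long RNA, was at 1.65, 1.89 and 1.12 CPM in A-498 against 0.0252, 0.0509 and 0.0664 CPM (4.98 ± 0.38).

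Replication and mitosis genes were higher in 786-O in 30 of 46 tested (65.2%), with 1 (2.2%) higher in A-498. Their median was -0.71, at -0.77 in the control pair, -0.33 with hairpin 1 and -1.005 with hairpin 3. No member reached 4-fold. KIF20A, a mitotic kinesin, stood at 168, 118 and 161 CPM in 786-O and 55, 42.4 and 79.4 CPM in A-498 (-1.37 ± 0.14), UBE2C, of the ligase that ends mitosis, at 184, 162 and 226 CPM and 74.8, 96.7 and 73.4 CPM (-1.22 ± 0.17), and BIRC5, survivin, at 55.5, 51.4 and 65.2 CPM and 22.9, 28.1 and 23.8 CPM (-1.20 ± 0.13). CCNE1, cyclin E1, was the member higher in A-498, at 24.1, 17.2 and 6.15 CPM against 11, 8.63 and 3 CPM (1.05 ± 0.12); its call was lost with no construct block. In bulk RNA a smaller share of dividing cells and less transcript per cell cannot be told apart.

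Some of the largest differences lay side by side in the genome. When the 15706 tested genes with a place in RefSeq's gene order were read in that order, 6 runs of at least 5 neighbours were all called and at least 4-fold higher in 786-O, and 6 runs were so in A-498. Of the 6 runs higher in 786-O, 5 were clusters of C2H2 zinc finger genes, a family of DNA-binding proteins that often repress transposable elements. They held 20, 19, 16, 8 and 7 genes, 64 of the 70 by a zinc finger symbol, with median log2 differences of -7.63, -8.14, -5.00, -10.3 and -7.56. In the control pair all 70 were at least 2-fold higher in 786-O. Their summed level was 595 to 612 CPM in the 786-O libraries and 11.8 to 18.8 CPM in those of A-498, and 48 of the 70 stayed under 0.1 CPM in every A-498 library. These runs, and the genes named from them, were chosen after their values were seen, so they carry no test of their own.

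Within these runs ZNF83 stood at 82.3, 77.5 and 63.1 CPM in 786-O and 1.91, 1.54 and 1.11 CPM in A-498, and ZNF320 stood at 36.7, 38.7 and 34.2 CPM and 0.0904, 0.138 and 0.0102 CPM. ZNF714 of the third run was at 23.3, 28.3 and 37.1 CPM against 0.0502, 0.0751 and 0.0717 CPM. ZNF611, in the midst of the first run, differed least within that run, at 20.4, 15.1 and 17.5 CPM against 5.05, 3.33 and 3.62 CPM. Over all 441 tested genes with a symbol of ZNF and a number, 192 (43.5%) were higher in 786-O and 112 (25.4%) in A-498. By at least 4-fold these were 98 (22.2%) and 21 (4.76%), beside 5.14 and 12.9% of all genes. This family was picked after the runs were seen, and it holds most genes of the runs. Those genes were at least 4-fold higher in 786-O by the choice of the runs, so these shares carry no test either. Zinc finger genes resemble each other in sequence, and how the authors' counter treated reads with several matches is not stated in the sources used.

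**Figure D5:**
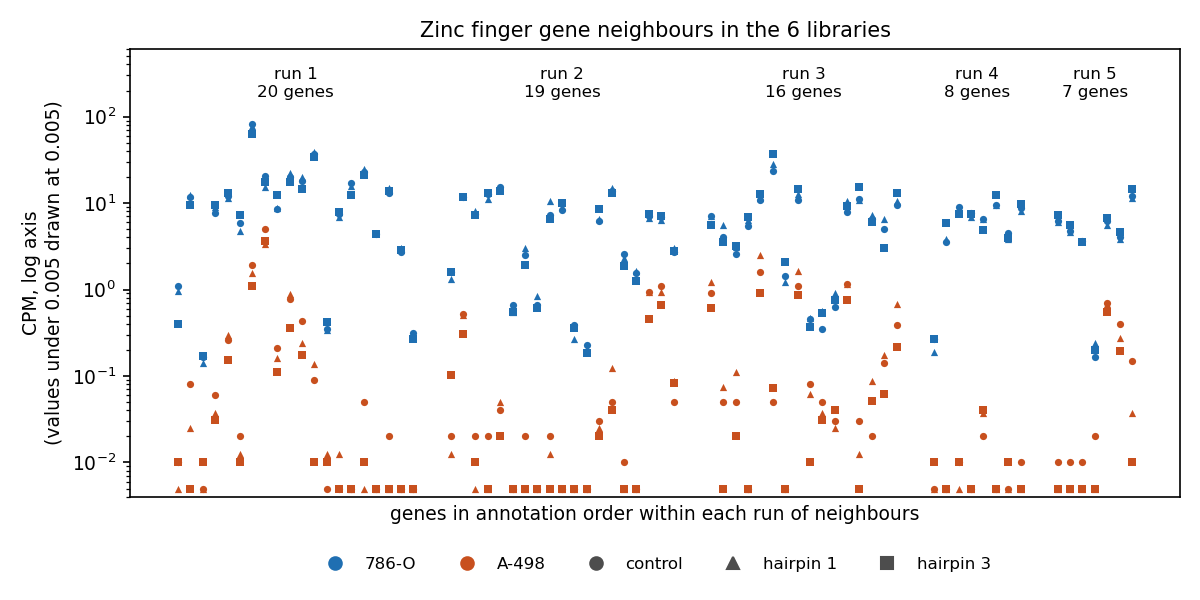
The 70 genes of the 5 zinc finger runs in gene order along the x axis, with CPM in each of the 6 libraries on a log y axis (blue 786-O, orange A-498, shapes for constructs; values under 0.005 drawn at 0.005). Blue points lie above orange points for each gene, and 48 genes stay under 0.1 CPM in all A-498 libraries.

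The sixth run towards 786-O held NDN, SNHG14, PWAR6 and 2 small nucleolar RNA genes of an imprinted region (median log2 difference -9.53). Towards A-498, the longest run was 9 genes of the protocadherin alpha cluster and its neighbour PCDHB2 (8.25). Others were a run of 6 around PCDH10, PCDH18 and SLC7A11 (3.06), which encodes the cystine carrier, and runs of 5 around TLR3 (2.74), CXCL16 (4.15), ISLR and STRA6 (5.40), and COL6A1 with COL6A2 (2.66).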

How the data were processed

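The authors deposited a table of read counts per gene symbol, without normalization, for the 6 libraries; each was assigned to its line and construct from its labels. Per the submitters' processing notes, STAR and DESeq2 were used with the builds hg19 and hs37d5; which tool counted the reads, and whether by strand, is not stated in these sources. The table also holds, per the file headers, DESeq2 output deposited by the authors: a mean signal per gene, a log2 fold change and its error, a score (the Wald statistic) and p-values, raw and adjusted. None was used here. No per-sample column was left unlisted (0).

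The line difference was tested by edgeR's quasi-likelihood method (version 4.0.16, under R 4.3.3; TMM scaling, expression filter grouped by line, terms for construct and line, 2 residual degrees of freedom), with Benjamini-Hochberg adjustment over 19231 genes and a call at 0.05; 13126 genes fell below the filter. The knockdown libraries alone left 1 residual degree of freedom and the interaction of line and knockdown 2. CPM is TMM-scaled, control ratios used a prior count of 2, and 95% counting intervals (exact binomial) cover counting error only. The fit was tested on simulated data. Alternatives were DESeq2 1.42.0, limma-voom 3.58.1, other scalings and filters, no construct block, and leaving out libraries.

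Same-numbered libraries received the same reagent, and their deviations from the line means correlated between the lines over 11027 genes (0.578 for the control, 0.530 for hairpin 1, 0.610 for hairpin 3), so construct served as the block. The members and lists were chosen with earlier results of these data known. Genes named are the 12 largest differences per direction at 10 CPM or more, up to 4 called members per list and direction, any kidney, HIF or driver gene, and the smallest interaction p-values. The 12 were taken among called genes with the same direction in all 3 construct pairs. X-inactivation and Y-linked genes and symbols of clone-based, antisense or unnamed loci were left out before the 12 were taken. Markers of other cell types, the genes named from runs of neighbours, BST2, ISG15, MX2, LAMB3 and SAMHD1 fall outside this rule. All but the markers were chosen after their values were seen. Neighbours come from the RefSeq gene table of GRCh38.p14; no coordinates are given, since the files use hg19. Genes without a row in the table are not analysed here, and some genes the rule takes are not reported.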

Additional observations from a re-analysis of the deposited data

How the results depend on the processing

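No gene called both in the main fit and in an alternative run took the opposite direction there. Over all genes, directions were not compared for genes that lost their call. Every count over all genes stayed within 1.5 times its value. With no replicate block by construct 9247 genes were called (5007 higher in A-498, 4240 in 786-O), and 9042 with terms for line and knockdown status. DESeq2 called 11247 genes, limma-voom 11961, DESeq2-type size factors 11890, total counts 11773, no filter 13665 and a minimum of 1 CPM 9340. Leaving out 1 library gave 9321 to 12366 calls, and leaving out the control, hairpin 1 or hairpin 3 pair 9229, 10481 or 12072. With total counts 55.95% of calls were higher in A-498, beside 51.56%. The interaction called 0 genes under each alternative, with the hairpin as a replicate block included. Without the block 9236 of the 11877 genes remained called. Of 355 named genes none with a call reversed; over these genes and the alternatives 175 values lost their call, 19 gained one and 31 values that were never called changed sign. The counts per list were recomputed as an addition made after seeing the data; they moved by over 1.5 times in 85 cases and by less in 1207. With 3 libraries a line and 2 residual degrees of freedom, a difference that was not called is not shown to be absent, and genes at 0 in a line have only a lower bound.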
